A study of Mus musculus with 4 samples.

Results

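The Wnt genes examined here were 47 listed ligands, receptors, antagonists, an agonist, nuclear effectors and targets of the Wnt pathway, out of 24421 genes in the count table of whole mouse embryos. The members were chosen by symbol: 18 ligands, 12 receptors, 10 secreted antagonists, the secreted agonist Rspo3, 4 nuclear effectors and 2 targets. A member with fewer than 10 reads in every library counted as not measured. By that rule 46 of the 47 were measured, and Wnt16 was not, with 0 reads in the E7.5 WT library, 7 in the E8.5 WT library, 1 in KO1 and 1 in KO2.

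Whole embryos of the ICR strain that lack Ddx6, an RNA helicase that acts in translational repression and in the decay of mRNA, were set against wild-type ones. Wild-type embryos gave 1 library at embryonic day 7.5, called E7.5 WT, and 1 at embryonic day 8.5, called E8.5 WT. Ddx6 -/- embryos gave 2, both from embryonic day 8.5, called KO1 and KO2. The null allele came from removal of a floxed exon by the ubiquitous CAG-Cre line, so the allele was inherited by every tissue of the embryo. The KO libraries were pools of embryos. KO1 combined embryos from before and after formation of the head folds, whereas KO2 held embryos from before that stage alone, so the KO replicates also differed in morphological stage.

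Wnt proteins are secreted lipid-modified ligands that bind a Frizzled receptor together with Lrp5 or Lrp6. The canonical branch stabilises β-catenin, which activates transcription with TCF and LEF factors, and a separate branch acts on cell polarity and movement. In the gastrulating mouse embryo, Wnt signals are required to form the primitive streak, to make the posterior body and paraxial mesoderm, and must be held back by antagonists for the head to form.

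Library totals ranged from 8198402 reads in KO1 to 12562640 in E8.5 WT. Ddx6 had 2943 reads in the E7.5 WT library, 5715 in the E8.5 WT library, 706 in KO1 and 929 in KO2, counted over the whole gene and not over the deleted exon alone. Heart and primitive blood markers summed to a lower level in KO1 and KO2 than in E8.5 WT. The 4 heart markers together had 1872 reads at E8.5 in WT, 451 in KO1, 465 in KO2 and 203 at E7.5 in WT. For the 4 blood markers the reads were 2941, 15, 19 and 240, in that order. Hbb-bh1 and Hba-x gave 1579 and 1221 of the 2941. Among the heart and blood markers, Gata1 alone fell between the WT stages, from 205 reads to 65. Sums of the epiblast and of the primitive streak markers set the KO libraries apart. The 4 epiblast markers summed to 697 CPM (reads scaled to the normalized library size) in KO2, 177 in KO1 and 121 in E8.5 WT, and the 4 primitive streak markers to 484, 119 and 91.3 CPM. In E7.5 WT the same sums were 553 and 509 CPM. Each epiblast marker was higher in KO2 than in KO1, by between 1.47 and 4.43 on the log2 scale. Against E7.5 WT, the KO2 changes were 2.39 for Fgf5, 1.28 for Otx2, 0.07 for Pou5f1 and -0.42 for Utf1. Among streak markers, Eomes, Mixl1 and Mesp1 were higher in KO2 than in KO1 by 4.78, 3.14 and 3.26, but T by 0.30. Eomes gave 3128 of the 5896 streak reads in KO2. The changes of T against E7.5 WT were -1.72 in KO1 and -1.41 in KO2. In whole embryos, fewer cells of a type and less RNA per cell cannot be told apart.

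The ligand with the highest level differed between E7.5 WT, KO2 and the remaining pair of libraries. Levels per length are given as CPM per kilobase of exon, each with 1 library behind it. The 18 ligands summed to 60.7 in the E7.5 WT library, 67.0 in the E8.5 WT library, 72.6 in KO1 and 38.4 in KO2 on this scale. Wnt8a, a ligand of the posterior epiblast and streak, led in E8.5 WT with a level of 20.1 and in KO1 with 19.1, which were 30.03% and 26.3% of the ligand sum. Wnt3, the ligand required to start the primitive streak, led in KO2 with a level of 8.67, or 22.6% of the sum, against 1.82% in E8.5 WT. In E7.5 WT the leading ligand was Wnt7b, which acts in the chorion and placenta, with a level of 13.1 or 21.5% of the sum.

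**Figure D1:**
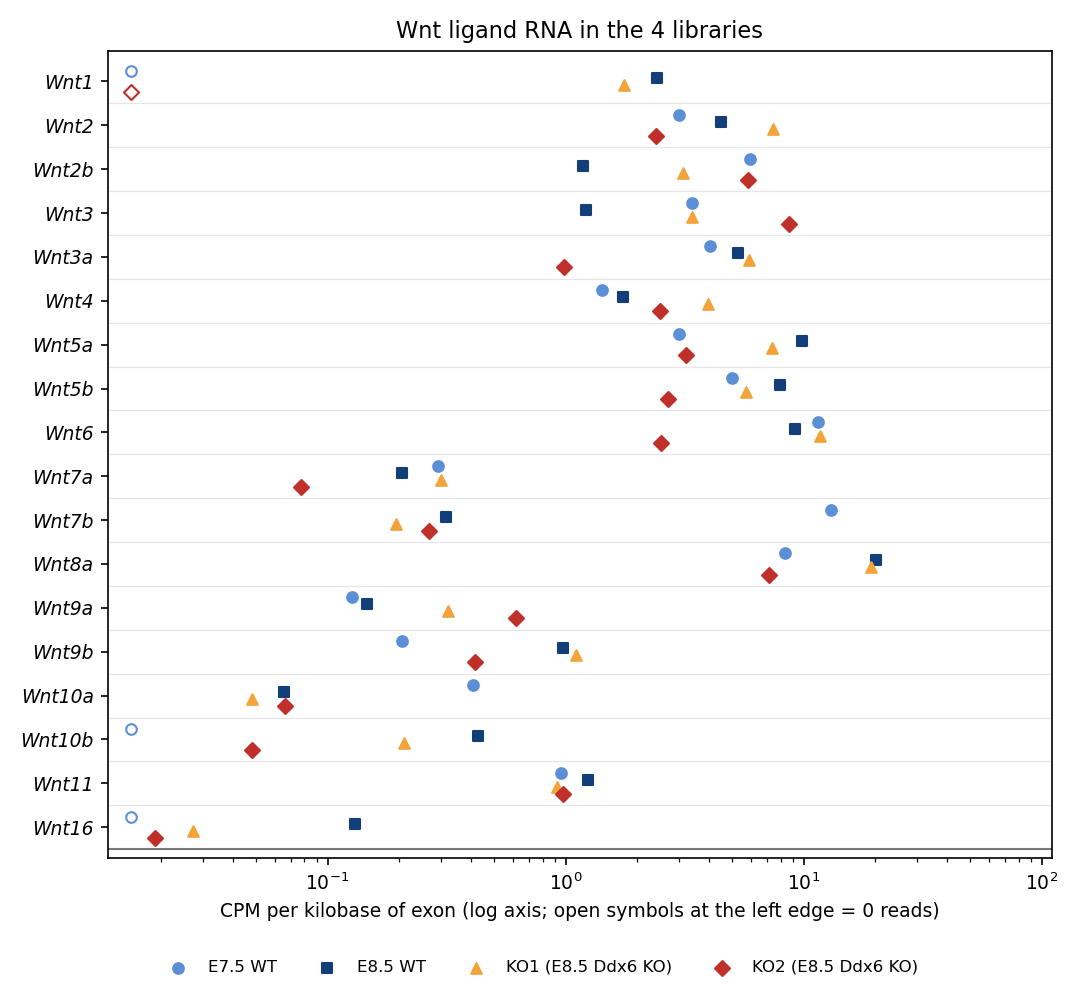
Level of each of the 18 Wnt ligands (rows) in each library (symbols), in CPM per kilobase of exon on a log axis, with open symbols at the left edge for 0 reads. KO2 lies left of KO1 for most ligands, whereas Wnt3 (8.67 in KO2, 3.41 in KO1) and Wnt2b (5.82, 3.12) lie to the right.

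The comparison of the KO libraries with E8.5 WT asked which members differed at the same embryonic day. Changes are differences of log2 CPM with a prior count of 2, and a member was called when the change was above 1 or below -1 in both KO libraries. Wnt2b and Wnt3 were called higher, which was 2 of 46 members (4.35%), beside 3.44% of all 14393 measured genes. No member was called lower, beside 1.79% of all genes. Both shares lie near those of all genes. Taken singly, KO1 was above E8.5 WT by the threshold for 3 members (4.97% of all genes) and below it for 0 (3.31% of all genes), while KO2 was above for 5 (9.41%) and below for 13 (5.91%).

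Wnt3 (GRCm38 chromosome 11, 103774150 to 103817957, plus strand) had 124 reads in the E7.5 WT library, 46 in the E8.5 WT library, 88 in KO1 and 325 in KO2. E8.5 WT was the lowest library and KO2 the highest. The log2 change against E8.5 WT reached 1.44 in KO1 (95% interval 0.96 to 2.03) and 2.78 in KO2 (2.38 to 3.31), with a mean of 2.11 ± 0.94 (SD, n = 2). In the edgeR quasi-likelihood test the unadjusted p was 0.0336 and the adjusted p 0.666. Against E7.5 WT the change was 0.01 in KO1 (-0.40 to 0.41) and 1.34 in KO2 (1.05 to 1.67), so the KO1 level was not distinguishable from that of E7.5 WT at this depth.

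Wnt2b (chromosome 3, 104945272 to 104961921, minus strand), a close relative of Wnt2, had 297 reads in the E7.5 WT library, 61 in the E8.5 WT library, 110 in KO1 and 298 in KO2. Both KO libraries lay above E8.5 WT and at or below E7.5 WT. Its log2 change against E8.5 WT reached 1.37 in KO1 (0.94 to 1.88) and 2.26 in KO2 (1.899 to 2.72), with a mean of 1.81 ± 0.63 (SD, n = 2). The edgeR unadjusted p was 0.0194 and the adjusted p was 0.666. Both genes were also lower in E8.5 WT than in E7.5 WT, by 2.29 for Wnt2b and 1.44 for Wnt3 on the log2 scale. Some transcripts of tissue around the embryo also moved with these genes, and others did not. Prl8a2, made by the maternal decidua, had 1318 reads in the E7.5 WT library, 26 in the E8.5 WT library, 64 in KO1 and 1433 in KO2, and the 8 decidual markers, all with reads in every library, summed to 198, 84.6, 111 and 196.5 CPM. Prl8a2 alone gave 1433 of the 2394 decidual reads in KO2, against 26 of 1040 in E8.5 WT. Its log2 change in KO2 against E8.5 WT was 5.68. That change was 1.03 for Pgr and 0.37 for Dio3. It lay between -0.93 and 0.09 for Cryab, Dcn, Hand2, Hoxa10 and Hoxa11. The decidual sum thus followed Wnt2b and Wnt3 mainly through Prl8a2. In the same order of libraries, the 7 markers of uterine natural killer cells summed to 2.61, 0.326, 2.501 and 16.4 CPM. These sums rest on few reads, 31, 4, 21 and 200 over all 7 markers. Of these, 4 to 6 had reads in a library. The part of these markers, and of the epiblast and primitive streak markers given above, in the Wnt2b and Wnt3 levels was not tested.

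With edgeR, 0 of the 14393 genes passed an adjusted p of 0.05 against E8.5 WT (0.0% of all genes), with the spread taken from the KO libraries alone. The unadjusted p was under 0.05 for 1052 genes (7.31%) and for 5 of 46 members, Wnt2b, Wnt3, Dkk1, Frzb and Tcf7l2. DESeq2 called 31 genes (0.215%), of which 0 were members. The p-values measure the spread between 2 pools of embryos that differed in stage. By counting error alone, 11 of 46 members lay above E8.5 WT in both KO libraries (23.9%, beside 13.7% of all genes) and 4 below (8.7%, beside 15.8%), where the 95% interval of each library excluded 0.

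**Figure D2:**
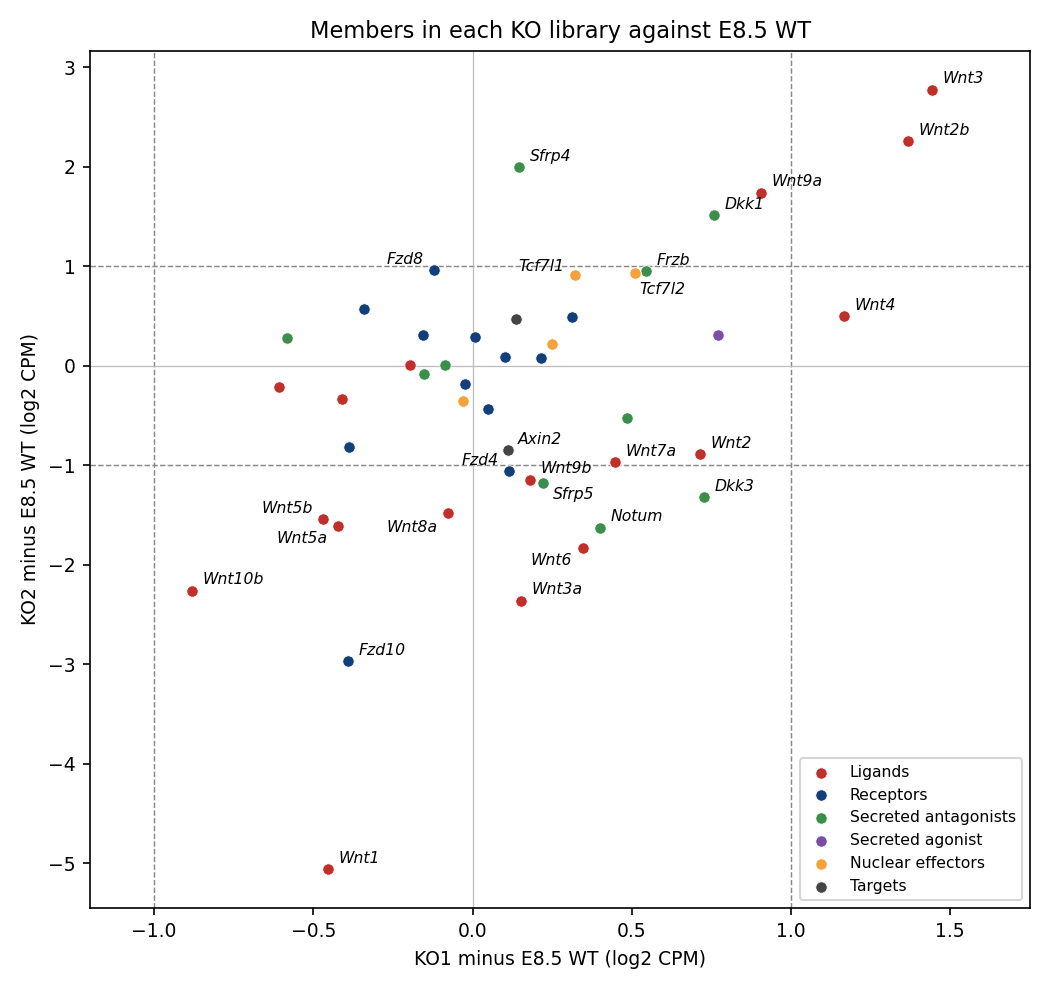
Log2 CPM change against E8.5 WT in KO1 (horizontal axis) and KO2 (vertical axis) for the 46 measured members, coloured by role, with dashed lines at the threshold of 1 and -1. Wnt2b and Wnt3 lie past the threshold on both axes, and the members far down the vertical axis, from Wnt8a to Wnt1, lie within the threshold on the horizontal one.

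Ligand RNA set the KO libraries apart from each other. KO2 was lower than KO1 by the threshold for 16 of 46 members (34.8%), beside 4.89% of all genes, and higher for 3 members, beside 5.99% of all genes. Ligands made up 10 of the 16, which was 10 of the 17 measured ligands (58.8%). The median change of the ligands between KO2 and KO1 was -1.19, against -0.07 for the receptors, 0.08 for the antagonists and 0.02 for all genes, and the ligand median was the same with Wnt1 placed at its bound. These comparisons rest on 1 library each and carry no test. The pools differed in morphological stage, and stage and the other differences between the pools cannot be told apart.

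Wnt3a (chromosome 11, 59248033 to 59290752, minus strand), the ligand that maintains paraxial mesoderm progenitors of the tail bud, had 133 reads in the E7.5 WT library, 180 in the E8.5 WT library, 137 in KO1 and 33 in KO2. KO2 lay below the other libraries, which did not differ from each other by the threshold. The log2 difference between KO2 and KO1 was -2.51 (95% interval -3.19 to -2.03). Wnt6, a ligand of surface ectoderm, had 299, 247, 215 and 67 reads, in that order of libraries, and the difference was -2.18 (-2.64 to -1.82). Both ligands were thus lower in KO2 than in either WT library.

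Wnt1 (chromosome 15, 98789857 to 98793837, plus strand), a ligand of the midbrain and dorsal neural tube, had 0 reads in the E7.5 WT library, 71 in the E8.5 WT library, 35 in KO1 and 0 in KO2. Against a floor of 3 reads per library, KO2 was at least 23.5-fold lower than E8.5 WT and at least 16.9-fold lower than KO1. E8.5 WT was at least 22.9-fold higher than E7.5 WT. Wnt1 was therefore detected in E8.5 WT and KO1 and at 0 reads in the others. The 4 neural plate markers summed to 94.4 CPM in the E7.5 WT library, 212 in the E8.5 WT library, 147 in KO1 and 106 in KO2, each with reads in every library. Sox2 gave 1174 of the 1290 reads of that sum in KO2. The other markers were lower in KO2 than in E8.5 WT, with 42 against 533 reads for Sox1, 14 against 180 for Pax6 and 60 against 567 for Hoxb1, and so moved with Wnt1 between these libraries. In KO1 they had 178, 31 and 552 reads, with log2 changes against E8.5 WT of -1.03, -1.94 and 0.51, beside -0.45 for Wnt1. In E7.5 WT they had 13, 10 and 493 reads, so Hoxb1 did not follow Wnt1 there. The part of these markers in the Wnt1 counts was not tested.

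Wnt5a, a ligand of the non-canonical branch needed for axis elongation, had 280 reads in the E7.5 WT library, 948 in the E8.5 WT library, 483 in KO1 and 306 in KO2. Wnt5b, its close relative, had 158, 260, 128 and 87 reads. KO2 was lower than KO1 by 1.19 for Wnt5a (interval of the difference -1.41 to -0.99) and by 1.08 for Wnt5b (-1.50 to -0.69) on the log2 scale. Both were below E8.5 WT in both KO libraries with intervals that excluded 0, although in KO1 the changes, -0.42 and -0.47, were within the threshold. Wnt8a had 174, 432, 280 and 152 reads, and its KO2 level was 2.82-fold below that of E8.5 WT while KO1 was close to it, with a log2 change of -0.08 (-0.30 to 0.14).

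The other ligands lower in KO2 than in KO1 had fewer reads. Wnt2, expressed in the allantois and early heart region, had 80 reads in the E7.5 WT library, 125 in the E8.5 WT library, 141 in KO1 and 66 in KO2. Wnt9b had 11, 54, 42 and 23 reads, and KO2 was again below KO1 (difference -1.33, interval -2.21 to -0.64). Wnt10b had 0, 18, 6 and 2 reads, and Wnt7a had 11, 8, 8 and 3. For Wnt10b and Wnt7a the intervals of the difference, -5.46 to 0.36 and -4.50 to 0.11, included 0, so these were not distinguishable at this depth. Wnt4 had between 71 and 140 reads and was higher in both KO libraries than in both WT libraries, by between 0.50 and 1.45, and Wnt11 had between 32 and 63 reads with no difference past the threshold.

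The 4 paraxial mesoderm markers summed to 9.77 CPM in KO2 against 69.8 in KO1, 69.9 in E8.5 WT and 35.7 in E7.5 WT. All 4 had reads in every library. Meox1 had 3 reads in the E7.5 WT library, 390 in the E8.5 WT library, 235 in KO1 and 6 in KO2. In that order Tbx6 had 351, 218, 215 and 91 reads, Tcf15 32, 124, 37 and 19, and Msgn1 38, 127, 99 and 3. The sum was lowest in KO2, as Wnt3a was, but it differed between the WT stages, where Wnt3a changed by 0.38 on the log2 scale. The part of these markers in the lower ligand levels of KO2 was not tested.

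Against E7.5 WT, 4 members were called higher in both KO libraries, Fzd3, Fzd6, Wif1 and Wnt9a (8.7% of members, beside 6.91% of all genes), and 2 were called lower, Wnt7b and Wnt10a (4.35%, beside 2.7%). Wnt7b (chromosome 15, 85535437 to 85582473, minus strand) had 762 reads in the E7.5 WT library, 19 in the E8.5 WT library, 8 in KO1 and 16 in KO2. Its log2 change was -5.83 in KO1 (95% interval -7.29 to -5.09) and -5.43 in KO2 (-6.42 to -4.90), and the E8.5 WT library was lower than E7.5 WT by a similar amount, -5.22. DESeq2 gave an adjusted p of 1.29e-14 for Wnt7b and edgeR an adjusted p of 0.128. Of the 6 markers of the extraembryonic ectoderm and chorion, some moved with it and others did not. Elf5 had 795 reads in the E7.5 WT library, 3 in the E8.5 WT library, 3 in KO1 and 10 in KO2, and Esrrb had 532, 37, 22 and 33. Tfap2c, with 879 reads in E7.5 WT and 334 in KO2, and Esx1, with 125 and 56, were also highest in E7.5 WT. Eomes, which marks the primitive streak as well, was highest in KO2 (1333, 64, 77 and 3128), and Cdx2 was lowest there (990, 1326, 653 and 150). The 6 markers, all with reads in every library, summed to 391, 131, 108 and 304.5 CPM, so the sum was high in KO2, mostly from Eomes, where Wnt7b was not. Their part in the Wnt7b counts was not tested.

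Wnt10a had 12 reads in the E7.5 WT library, 2 in the E8.5 WT library, 1 in KO1 and 2 in KO2. Wnt9a had 5, 6, 9 and 25 reads, and its interval against E7.5 WT excluded 0 in KO2 (0.88 to 4.03) but not in KO1 (-0.38 to 3.28). These are calls on few reads.

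With edgeR, 0 genes passed the adjusted p against E7.5 WT (0.0% of all genes), while 3511 genes (24.4%) and 11 of 46 members had an unadjusted p under 0.05. DESeq2 called 728 genes (5.06%) and 4 members, Wnt7b, Fzd3, Fzd5 and Fzd7. DESeq2 gave no adjusted p here for 3070 genes, which count as not called in that share. Members with few reads, such as Wnt1, Wnt9a, Wnt10a and Wif1, were among them. In this comparison the embryonic day and the genotype differ together and cannot be told apart. The same contrast between the WT stages is given for that reason. E8.5 WT was higher than E7.5 WT by the threshold for 14 of 46 members (30.4%, beside 12.2% of all genes) and lower for 5 (10.9%, beside 7.82%).

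No member lay past the threshold above both WT libraries in both KO libraries (0.75% of all genes), and none below (0.361%). Without a threshold, both KO libraries lay above both WT libraries for 10 of 46 members (21.7%, beside 18.4% of all genes) and below for 1, Wnt7b (2.17%, beside 17.6%). For 5 of the 10, Wnt4, Fzd6, Dkk1, Frzb and Rspo3, all 4 counting intervals lay above 0 (10.9% of members, beside 5.41% of all genes). The reverse held for no member, beside 5.8% of all genes.

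Of the 12 receptors, Fzd4, Fzd8 and Fzd10 differed between KO2 and KO1 by the threshold, and none differed from E8.5 WT in both KO libraries. The 12 receptors summed to 124 CPM per kilobase in the E7.5 WT library, 197 in the E8.5 WT library, 192 in KO1 and 182 in KO2. Fzd2, Fzd7 and Lrp5 had the highest levels of the receptors in every library. Fzd2 had 1397 reads in the E7.5 WT library, 2611 in the E8.5 WT library, 1845 in KO1 and 1914 in KO2, and Fzd7 had 1447, 2579, 1773 and 3120. Lrp5, a co-receptor, had 3477, 2402, 1762 and 2538 reads, and it changed against E8.5 WT by 0.10 in KO1 and 0.09 in KO2. None of these 3 differed from E8.5 WT by the threshold in either KO library.

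Fzd10 (chromosome 5, 128600844 to 128604093, plus strand), a receptor of the neural tube and tail bud, was lowest in KO2. It had 177 reads in the E7.5 WT library, 663 in the E8.5 WT library, 345 in KO1 and 82 in KO2. Its level was 8.02-fold lower in KO2 than in E8.5 WT and 6.10-fold lower than in KO1, whereas in KO1 the log2 change against E8.5 WT was -0.39 (-0.58 to -0.20). KO2 was thus below both WT libraries. Fzd4 had 196, 546, 404 and 259 reads in the same order, with a difference of -1.17 between KO2 and KO1. Fzd8, a receptor of the anterior neural plate, had 185, 255, 160 and 495 reads and was higher in KO2 than in KO1 by 1.09 (interval 0.83 to 1.36).

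A pair of receptors separated the E8.5 libraries, mutant or not, from E7.5 WT. Fzd3 had 335 reads in the E7.5 WT library, 1562 in the E8.5 WT library, 816 in KO1 and 876 in KO2. Changes against E7.5 WT were 1.78 and 1.35, with an adjusted p of 0.000426 in DESeq2 and 0.128 in edgeR, and both KO libraries stayed below E8.5 WT, by 0.39 and 0.82. Fzd6, a receptor of the cell polarity branch, as Fzd3 is, had 84, 221, 188 and 309 reads, with changes against E7.5 WT of 1.64 and 1.82. Besides Fzd3, DESeq2 called Fzd5 and Fzd7 in this comparison, and Fzd6 was not called. Changes against E7.5 WT were 0.76 in KO1 and 1.67 in KO2 for Fzd5, and 0.79 and 1.07 for Fzd7. The remaining receptors, Fzd1, Fzd9 and Lrp6, changed against E8.5 WT by between -0.18 and 0.31 in the KO libraries.

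**Figure D3:**
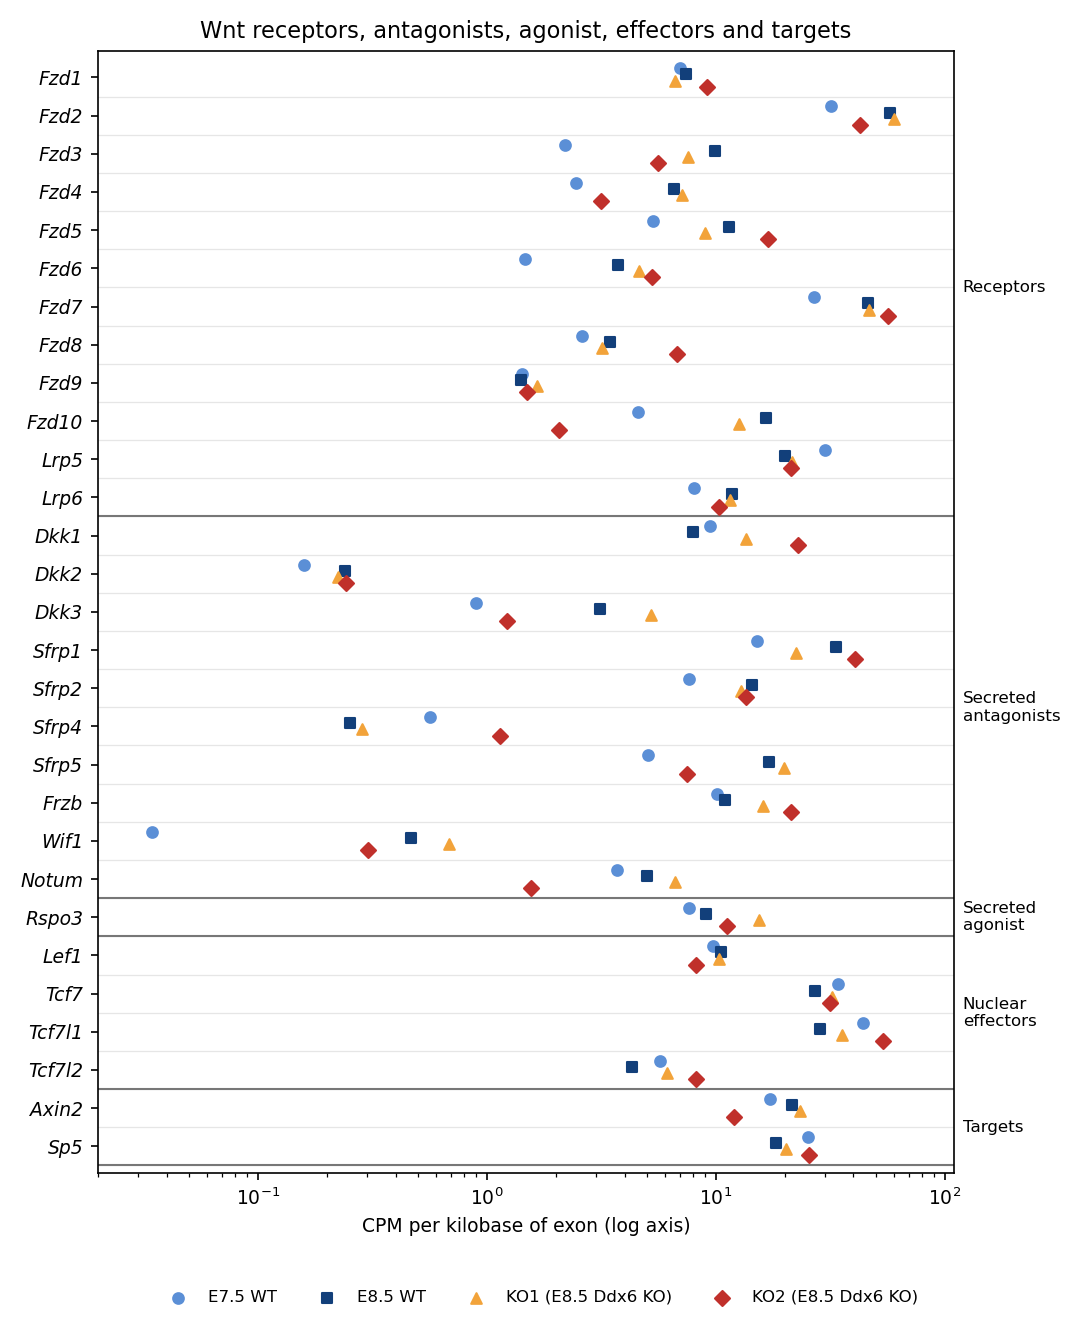
Level of each receptor, antagonist, agonist, nuclear effector and target (rows, grouped by role) in each library (symbols), in CPM per kilobase of exon on a log axis. Most rows hold the E8.5 WT and KO symbols close together, while Fzd10 (16.6 in E8.5 WT, 2.07 in KO2), Notum (5.001, 1.57) and Dkk1 (7.98, 22.9) spread apart.

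The secreted antagonists split between KO libraries in both directions. Their levels summed to 52.8 in the E7.5 WT library, 93.0 in the E8.5 WT library, 97.8 in KO1 and 110 in KO2, in CPM per kilobase. Sfrp1, a decoy that binds Wnt proteins, had the highest level in every library, with 787 reads in the E7.5 WT library, 1798 in the E8.5 WT library, 820 in KO1 and 2158 in KO2. Dkk1 (chromosome 19, 30545863 to 30549665, minus strand), which blocks Lrp5 and Lrp6 and is needed for head formation, had 274, 238, 276 and 677 reads. Its change against E8.5 WT reached 0.76 in KO1 (0.51 to 1.02) and 1.51 in KO2 (1.30 to 1.74), and both KO libraries were above both WT libraries. The edgeR unadjusted p was 0.0394 and the adjusted p 0.666.

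Frzb, a decoy of the same family as Sfrp1, had 389 reads in the E7.5 WT library, 437 in the E8.5 WT library, 436 in KO1 and 838 in KO2. After scaling for depth it was higher than E8.5 WT by 0.54 in KO1 (0.35 to 0.74) and 0.95 in KO2 (0.78 to 1.12). Sfrp4 had 28, 13, 10 and 58 reads and was higher in KO2 than in KO1 by 1.85 (1.02 to 3.13). These decoys were within the threshold of E8.5 WT in KO1.

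Notum, an enzyme that removes the lipid of Wnt proteins and is itself induced by Wnt signalling, had 106 reads in the E7.5 WT library, 148 in the E8.5 WT library, 134 in KO1 and 46 in KO2. KO2 minus KO1 was -2.03 on the log2 scale (-2.60 to -1.59), and KO2 was below both WT libraries. Dkk3, a divergent member of the Dkk family, had 36, 129, 147 and 50 reads, with a difference of -2.05. Sfrp5 had 114, 399, 318 and 174 reads, with a difference of -1.40, and the KO2 levels of Dkk3 and Sfrp5 lay between those of the WT libraries. Wif1, which binds Wnt proteins directly, had 1, 14, 14 and 9 reads. Its ratio of KO2 to KO1 had an interval of -2.56 to 0.14 on the log2 scale, so that difference was not distinguishable at this depth. Dkk2 had between 7 and 11 reads, and Sfrp2 changed against E8.5 WT by -0.15 in KO1 and -0.08 in KO2.

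Rspo3, which enhances Wnt signalling by protecting Frizzled receptors from removal, had 281 reads in the E7.5 WT library, 344 in the E8.5 WT library, 402 in KO1 and 422 in KO2. It was higher than E8.5 WT by 0.77 in KO1 (0.56 to 0.99) and 0.31 in KO2 (0.10 to 0.52), below the threshold in both.

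None of the 4 nuclear effectors and 2 targets passed the threshold in any of these comparisons. Tcf7l1, the factor that mainly represses Wnt targets, had 2048 reads in the E7.5 WT library, 1382 in the E8.5 WT library, 1180 in KO1 and 2577 in KO2, and Tcf7 had 1065, 879, 714 and 1013. Lef1, an activating factor and itself a Wnt target, had 1023, 1136, 761 and 881 reads, with changes against E8.5 WT of -0.03 and -0.35. Tcf7l2 had 594, 464, 452 and 878 reads, with changes of 0.51 and 0.93 and an edgeR unadjusted p of 0.0372 (adjusted 0.666). The median change of the 4 effectors relative to E8.5 WT came to 0.28 in KO1 and 0.56 in KO2, beside -0.01 and 0.00 for all genes.

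Axin2 (chromosome 11, 108920349 to 108950783, plus strand), the feedback target most used as a readout of canonical signalling, had 1134 reads in the E7.5 WT library, 1464 in the E8.5 WT library, 1080 in KO1 and 804 in KO2. KO1 was close to E8.5 WT, with a change of 0.11 (-0.004 to 0.225), and KO2 was lower by 0.85 (-0.98 to -0.73). Sp5, a transcription factor and direct target, had 634, 475, 357 and 653 reads, with changes of 0.14 (-0.06 to 0.34) and 0.47 (0.30 to 0.64). In KO2 the targets thus moved apart, Axin2 below and Sp5 above E8.5 WT, each within the threshold.

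The recognition word of TCF and LEF factors was searched for in the promoters of the members. Windows of 250 bases before the start were taken from RefSeq (GRCm38.p6), and the words CTTTGAT and CTTTGAA were searched on both strands. Of the members, 32 were matched by symbol in 40 windows, and 4 windows held a word, beside 7.48% of the 32851 windows of all genes. The 4 windows are shown, 30 bases each from the gene's own strand and with the word in capitals, since Sp5 and Dkk1 are known to respond to Wnt. They lie at chr2:70474808-70474837 (plus strand, Sp5), chr19:30549595-30549624 (minus, Dkk1), chr7:98835050-98835079 (plus, Wnt11) and chr6:119449439-119449468 (minus, a start of Wnt5b).
Sp5: ggcaaggccccCTTTGATcaggaaaatcca
Dkk1: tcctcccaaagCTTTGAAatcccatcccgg
Wnt11: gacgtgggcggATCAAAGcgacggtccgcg
Wnt5b: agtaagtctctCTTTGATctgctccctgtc
Counted from the RefSeq start, the word in Sp5 begins 104 bases upstream and that in Dkk1 117, while that of Wnt11 reads on the opposite strand. The RefSeq start of Dkk1 lies 169 bases inside the gene as GENCODE places it above, so by that annotation the Dkk1 word begins 52 bases after the start. That of Wnt5b likewise lies inside the GENCODE gene. The 4 genes did not move together, since Dkk1 was higher and Wnt5b lower than E8.5 WT in both KO libraries.

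DDX6 acts with the miRNA silencing complex, so members were also searched for matches to the seed that the miR-302 and miR-290 families share. These families are abundant in pluripotent and early embryonic cells. The mature sequences from RefSeq are shown with the seed, bases 2 to 8, in capitals.
mmu-miR-302b-3p: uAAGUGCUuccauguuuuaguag
mmu-miR-294-3p: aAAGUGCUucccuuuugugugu
A match, AGCACTT, was present in the annotated 3′ UTR of 11 of 46 members (23.9%), beside 17.2% of 13418 measured genes. The UTRs of members were longer, with a median of 1666.5 bases against 1186.5. Sites are shown, with the match in capitals, for Sfrp4 (chr13:19631684-19631713, plus strand, the first of 2) and Fzd10 (chr5:128603958-128603987, plus strand), the members with a match that had the highest and the lowest change in KO2.
Sfrp4: attttgagggagAGCACTTttattatttta
Fzd10: gagtggtcttgaAGCACTTgggaagacaaa
The median change against E8.5 WT of members with a match was 0.15 in KO1 and -0.21 in KO2, and of members without one 0.11 and -0.08. In all genes it was -0.02 and -0.06 with a match, and 0.00 and 0.01 without.

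The difference between the KO libraries was set beside that between the WT stages, which shares no library with it. Of the 14 members higher in E8.5 WT than in E7.5 WT, 10 (71.4%) were lower in KO2 than in KO1, beside 28.5% of the 1759 such genes overall. The 10 were Wnt1, Wnt5a, Wnt8a, Wnt9b, Wnt10b, Fzd4, Fzd10, Dkk3, Sfrp5 and Wif1. Of the 5 members lower in E8.5 WT, 2, Wnt3 and Sfrp4, were higher in KO2, beside 38.0% of the 1125 such genes. Across the 46 members Pearson's r was -0.59 and Spearman's rho -0.53, and across all 14393 genes -0.55 and -0.46. These are descriptions across genes within the same 4 libraries, and genes are not independent replicates. Of the 27 members that did not differ between the WT stages by the threshold, 6, Wnt2, Wnt3a, Wnt5b, Wnt6, Wnt7a and Notum, were lower in KO2 than in KO1, beside 1.62% of the 11509 such genes.

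**Figure D4:**
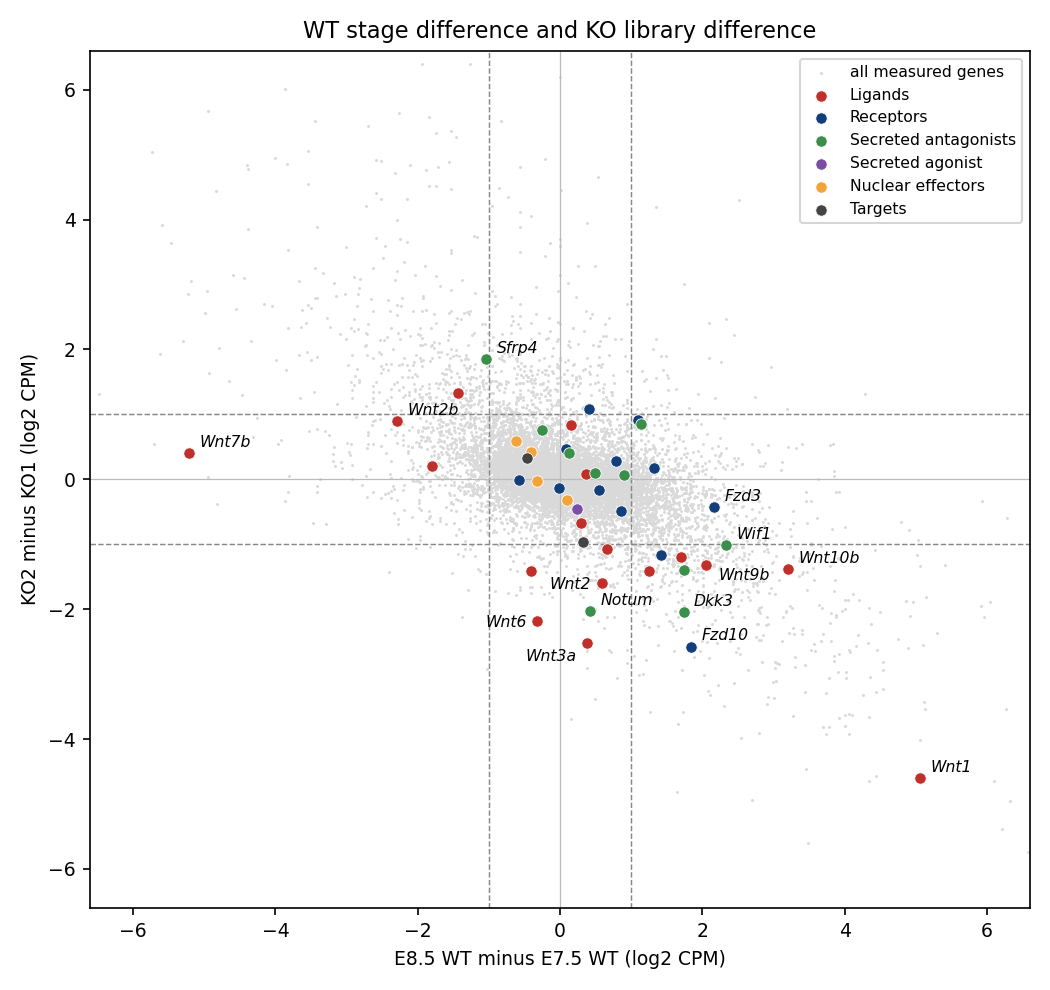
Log2 CPM difference of E8.5 WT and E7.5 WT (horizontal axis) and of KO2 and KO1 (vertical axis) for the 46 measured members, coloured by role, over all measured genes in grey, with dashed lines at the threshold and 18 genes outside the axes not drawn. Wnt1 lies at the lower right (5.06 and -4.60), while Wnt3a, Wnt6 and Notum lie below -2 on the vertical axis without a stage difference past the threshold.

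A further list of 73 pathway genes covered Wnt secretion, the cytoplasmic core, the R-spondin axis, polarity genes and genes of the streak and tail bud known to respond to Wnt, and 68 were measured. Against E8.5 WT, 1 was higher in both KO libraries (1.47%, beside 3.44% of all genes) and 3 were lower (4.41%, beside 1.79%). Prickle3, a polarity gene, had 61 reads in the E7.5 WT library, 35 in the E8.5 WT library, 63 in KO1 and 83 in KO2. Rspo1, an R-spondin, had 37, 84, 27 and 24 reads. Cdx4, a regulator of posterior identity, had 27, 387, 68 and 5 reads, and Wnt8b had 0, 10, 2 and 0, at or under the floor of 3 reads in all but E8.5 WT. None of the 22 genes of secretion and the core passed the threshold in both KO libraries, and their median changes were 0.07 and 0.01. Ctnnb1, which encodes β-catenin, had changes of -0.03 and 0.04. The streak and tail bud genes had a median change against E8.5 WT of -0.25 in KO1 and -1.03 in KO2. By counting error alone, 6 of the 14 lay below E8.5 WT in both KO libraries (42.9%, beside 15.8% of all genes). The 6 were Cdx1, Cdx2, Cdx4, Sp8, Ccnd1 and Myc, with changes of -1.22 and -0.77 for Myc. In the other direction, 1 lay above in both, T (7.14%, beside 13.7%), with changes of 0.38 and 0.68. Between the KO libraries, 7 of the 14 were lower in KO2 by the threshold, beside 4.89% of all genes, and 2, Mixl1 and Fgf8, were higher, beside 5.99%.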

How the data were processed

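Polyadenylated RNA of whole embryos was sequenced with a stranded kit in 4 libraries, grouped by the sample labels. The authors deposited 1 table of raw counts, not normalized. According to the submitters' processing notes and the methods, adapters were removed with cutadapt 2.8 and reads aligned to mm10 with HISAT2 2.1.0 and counted per gene by strand with featureCounts 2.0.0. A filter of 10 counts in any 1 library left 14393 of 24421 genes. Counts were scaled by TMM factors (edgeR 4.0.16, R 4.3.3), and log2 CPM used a prior count of 2. Calls needed a log2 change past 1 or -1, the criterion of the study's methods, and carry no p-value. Two-sided edgeR quasi-likelihood F-tests with Benjamini-Hochberg adjustment used a model of 3 groups, with the spread from the KO libraries alone. DESeq2 1.42.0 was the alternative, and its adjusted p of NA stayed NA. The script was tested on simulated data without a stage difference between the KO libraries, which checks the code and not the calls made here. Intervals are exact Clopper-Pearson 95% intervals of the ratio of 2 libraries without a prior count. Intervals, and the floor of 3 counts, cover counting error only. Exon lengths and positions came from GENCODE (GRCm38, the assembly of mm10). Members and lists were chosen with earlier results of these data known. Reads are given for members called against either WT library or between KO libraries, and for the 3 highest levels per length of each role.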

Additional observations from a re-analysis of the deposited data

How the results depend on the processing

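Counts of members called kept within 1.5 times of their values under DESeq2 size factors and plain CPM in every comparison of the members. With no filter, 1 member, Wnt16, was lower in both KO libraries than E8.5 WT, with 1 count in each KO library. A minimum of 50 counts left 2 members higher and 1 lower than E7.5 WT, since Wnt9a, Wif1 and Wnt10a have fewer counts. With a prior count of 0.5, Wnt9a passed the threshold against both WT libraries, which gave 1 member above both. A threshold of 2 left 0 members higher than E8.5 WT, 0 higher and 1 lower than E7.5 WT, 5 higher and 2 lower in E8.5 WT than E7.5 WT, 0 higher and 6 lower in KO2 than KO1, and 0 other pathway genes in each direction. Leaving out 1 KO library at a time gave 3 to 5 members higher and 0 to 13 lower than E8.5 WT, 11 to 16 higher and 2 to 7 lower than E7.5 WT, 1 to 3 above and 0 to 4 below both WT libraries, and 2 to 4 other pathway genes higher and 5 to 12 lower. The 13 lower members came without KO1, that is from KO2 alone, and without KO2 the number was 0. These are values with no test, since no residual degrees of freedom remain. DESeq2 called 31 genes against E8.5 WT and 728 against E7.5 WT where edgeR called 0 in both. Median changes of the members and role groups moved by less than 1 SD between the KO libraries, a spread that leaving out 1 of 2 libraries cannot pass. No paired analysis was possible, since each WT stage has 1 library and the labels link no libraries as pairs. Members with fewer than about 20 counts are limited by depth.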

Other observations

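Among the other pathway genes, several differed between the KO libraries in the same way as members. Sost, a secreted antagonist of Lrp5 and Lrp6, had 2 reads in the E7.5 WT library, 32 in the E8.5 WT library, 21 in KO1 and 1 in KO2. Cdx1, a direct target of canonical signalling in the posterior embryo, had 118, 1391, 806 and 22 reads, and Msgn1, a regulator of paraxial mesoderm, had 38, 127, 99 and 3. All 3 were near E8.5 WT in KO1 and near or below E7.5 WT in KO2. Mixl1, a gene of the primitive streak, had 292, 72, 41 and 542 reads, and was highest in KO2. Gpc4, a heparan sulfate proteoglycan that binds Wnt proteins, had 1437 reads in KO2, against 316 in KO1, 300 at E8.5 and 310 at E7.5 in WT, while the WT stages differed by -0.09 on the log2 scale. Trophoblast giant cell transcripts also set KO2 apart, with 4156 reads of Prl3d1 against 27, 1 and 3 in E7.5 WT, E8.5 WT and KO1. Prl2c2 had 1400 reads in KO2 against 3, 0 and 4. The 7 markers of that list, of which Prl3b1 and Tpbpa were at 0 in every library, summed to 791 CPM in KO2, against 249, 182 and 424 CPM in the same order. Hand1 gave most of the sums outside KO2, with 2570, 2229 and 3544 of 2958, 2240 and 3562 reads. Ascl2 was highest in E7.5 WT, with 358 reads against 54 in KO2. The part of these markers in the KO2 levels was not tested. These genes were named after their values were seen.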
